A study of Mus musculus with 4 samples.

Results

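Lmo4 and the LIM domain cofactors are described here in mouse islet cells given the mitochondrial peptide MOTS-c or a scrambled peptide. The members were 9 of the 22916 genes with a symbol on the array, the LIM-only genes Lmo1, Lmo2, Lmo3 and Lmo4, the LIM domain binding genes Ldb1 and Ldb2, the LIM homeodomain genes Lhx1 and Lhx2, and the SSBP gene Ssbp3. Every array probe that mapped to a member was used, which gave 13 of the 56605 gene probes on the array. All 13 were among the 35087 probes that 2 or more of the 4 arrays read well above background. The members were chosen from these arrays, with the difference between MOTS-c and scrambled already known, so their values are a description and carry no test. The second Lmo4 probe passed the background filter only through its MOTS-c arrays.

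RNA was measured with 4 Agilent arrays of 1 color, where the brightness of a spot (its intensity) reports the labeled RNA bound to a probe. Islet cells came from 4 male C57BL/6 littermates aged 60 weeks, were dispersed and then treated ex vivo for 24 h. The scrambled group (replicates 1 and 2) received a scrambled peptide and the MOTS-c group (replicates 2 and 3) received MOTS-c, both at 10 µM, with n = 2 arrays per group. The comparison addressed which transcripts differ in aged islet cells after MOTS-c, a peptide encoded within mitochondrial DNA.

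Between 61.6% and 65.0% of the gene spots on an array were well above background, and 0 were saturated. MOTS-c replicate 3 stood apart. Its Euclidean distance to the other arrays over 35084 probes was 72.8 to 86.8 log2 units, against 60.7 to 65.7 among the other 3 arrays. The difference without it is therefore given for each member probe. MOTS-c replicate 2 was closer to scrambled replicates 2 (61.3) and 1 (65.7) than to MOTS-c replicate 3 (72.8), so the arrays did not group by treatment. The labels describe the animals as male, yet 0 of 28 pairs of Y-linked probe and array were well above background and the Xist probe was well above background on 4 of 4 arrays. Of 7 beta cell markers that passed the background filter, Ins1 and Ins2 lay near the top of the scale at 18.1 to 18.6 in log2 signal, while Ucn3 did not pass. The proliferation markers Mki67, Top2a, Ccnb1 and Cdk1 were well above background on all 4 arrays, with Mki67 at 13.5 to 14.5 and the brighter Top2a probe at 13.8 to 14.7 in log2 signal. The sex in the labels and the arrays thus disagree. Which cells the arrays hold was not tested, and both the cell type and the sex are given here by the labels, as islet cells of male mice. The part of these features in the results was not tested.

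LIM domains are zinc-binding folds that hold proteins together rather than bind DNA. LIM-only proteins consist of little more than a pair of LIM domains, whereas LIM homeodomain factors add a homeodomain that binds DNA. Ldb1 and Ldb2 bind the LIM domains of both kinds and dimerize, bridging transcription factors at promoters and enhancers, and SSBP proteins protect Ldb proteins from degradation. LIM-only proteins can compete with LIM homeodomain factors for Ldb. In islets, Ldb1 acts with the LIM homeodomain factor Isl1 in genes of beta cell function.

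Promoter sequences of 300 bases around an annotated start were matched for 7 of the 9 members (all but Lmo2 and Ldb2) and came from RefSeq on the mouse build GRCm38.p6. These 7 genes had 14 promoters. Searched on both strands were GATA (the core of GATA factor sites), TAATTA (a homeodomain core) and CANNTG (the E-box), which are the kinds of sequence that Ldb complexes are known to bridge. The 4 sequences shown are those of Lmo4, the member with the largest difference in either direction, from separate start regions, and of Lmo1 and Ldb1, whose signals overlapped between the groups and which alone among the members held TAATTA or held 5 matches of GATA. Capitals mark the matches, and TATC is GATA on the other strand. All are on the minus strand and read 5′ to 3′.
Lmo4 at chr3:144205206-144205505: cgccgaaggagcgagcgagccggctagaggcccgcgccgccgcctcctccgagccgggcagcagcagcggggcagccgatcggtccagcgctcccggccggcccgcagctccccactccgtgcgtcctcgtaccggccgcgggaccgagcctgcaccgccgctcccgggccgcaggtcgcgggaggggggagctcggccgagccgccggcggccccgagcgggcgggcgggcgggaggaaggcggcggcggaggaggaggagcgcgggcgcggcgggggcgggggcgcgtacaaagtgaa
Lmo4 at chr3:144202347-144202646: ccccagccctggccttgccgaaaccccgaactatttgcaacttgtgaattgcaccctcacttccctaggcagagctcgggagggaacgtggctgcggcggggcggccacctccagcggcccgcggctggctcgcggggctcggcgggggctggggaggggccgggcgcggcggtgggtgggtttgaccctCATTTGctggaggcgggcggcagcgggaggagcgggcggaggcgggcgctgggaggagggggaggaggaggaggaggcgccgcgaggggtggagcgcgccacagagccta
Lmo1 at chr7:109175158-109175457: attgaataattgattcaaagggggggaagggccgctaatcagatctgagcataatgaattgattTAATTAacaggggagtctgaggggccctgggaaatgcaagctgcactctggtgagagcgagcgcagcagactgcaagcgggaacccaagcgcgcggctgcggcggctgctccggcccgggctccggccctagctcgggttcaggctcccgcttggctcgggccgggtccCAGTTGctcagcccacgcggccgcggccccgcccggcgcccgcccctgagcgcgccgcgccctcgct
Ldb1 at chr19:46037021-46037320: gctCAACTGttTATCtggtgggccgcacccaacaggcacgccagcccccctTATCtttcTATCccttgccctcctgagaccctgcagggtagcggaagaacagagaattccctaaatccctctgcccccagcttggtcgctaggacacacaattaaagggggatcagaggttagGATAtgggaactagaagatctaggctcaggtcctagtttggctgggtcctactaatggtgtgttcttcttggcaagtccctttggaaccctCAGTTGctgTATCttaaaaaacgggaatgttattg

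The distal Lmo4 promoter held 0 matches of the 3 motifs and was 81.3% G or C, and the proximal promoter held 1 CANNTG at 73.7% G or C. The Lmo1 promoter shown held 1 TAATTA and 1 CANNTG, and the Ldb1 promoter shown held 5 GATA and 2 CANNTG. The other Ldb1 promoters, at 67.3% and 71.3% G or C, held 0 matches of the 3 motifs. Among all 32851 promoters of the same length in the table, 57.9% held GATA, 5.29% TAATTA and 72.3% CANNTG, and the median G or C content was 52.7%. Both Lmo4 windows were thus richer in G and C than the median promoter. A match is a stretch of letters and was not measured as a bound site.

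Lmo4, which is expressed broadly in epithelia and the nervous system, had a higher signal with MOTS-c on both of its probes. Values are log2 signal after quantile normalization unless stated otherwise, and differences are MOTS-c minus scrambled. Probe A_51_P394190 read 5.11 and 5.13 with the scrambled peptide (replicates 1 and 2) and 6.46 and 6.47 with MOTS-c (replicates 2 and 3). The groups did not overlap, and the closest arrays of the opposite groups were 1.33 apart. The difference was 1.34 ± 0.12 (limma standard error, n = 2 arrays per group), or 2.54-fold, with an SD of 0.01 in each group. Of the 35087 probes, 49 were higher by more than this one.

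The second Lmo4 probe, A_55_P2018249, read 3.29 and 3.66 with the scrambled peptide and 4.33 and 4.90 with MOTS-c. These values give a measured difference of 1.14 ± 0.25 (SE, n = 2 per group). The probe was not well above background on either scrambled array, so only a bound can be stated. Each scrambled array was set to the lowest signal of any probe well above background on it, wherever this probe was dimmer. On that basis the signal was at least 1.48-fold higher with MOTS-c. The limit of this spot itself may be higher, so the bound is approximate. The probes shared the direction, but the bound lies below 1.5-fold.

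Both Lmo4 probes were dim. Before normalization, the deposited intensity of A_51_P394190 was 34.8 and 33.1 in the scrambled group, against 85.6 and 96.3 in the MOTS-c group. Its raw signal was 2.13 and 2.68 times the local background without MOTS-c and 4.14 and 4.32 times with it. The 2 groups therefore stayed apart for this probe without any normalization between arrays. For A_55_P2018249 the intensities were 9.7 and 11.3 against 19.2 and 33.0, and the raw signal was 1.57 and 1.73 against 1.83 and 2.39 times background. The normexp method of background correction (offset 50), which pulls dim values together, reduced the 2 differences to 0.58 and 0.24, both below 1.5-fold. Without MOTS-c replicate 3 they were 1.33 and 0.85.

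**Figure D1:**
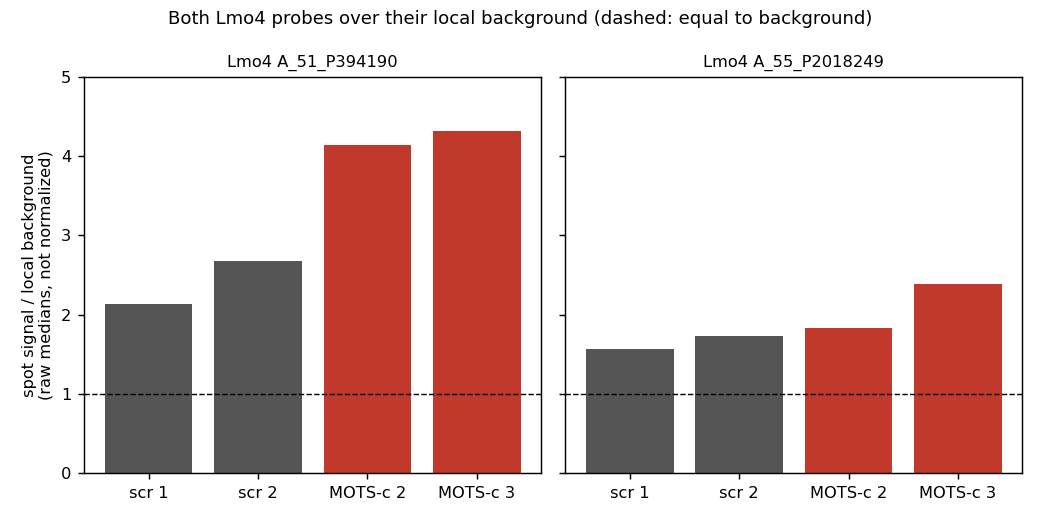
Raw median spot signal divided by the local background (vertical axis, no unit, starting at 0) for both Lmo4 probes on each of the 4 arrays (scr, scrambled). Each bar is 1 array, gray for scrambled and red for MOTS-c, and the dashed line marks a signal equal to background. The MOTS-c bars of A_51_P394190 (4.14 and 4.32) stand clear of its scrambled bars (2.13 and 2.68), while the lower MOTS-c bar of A_55_P2018249 (1.83) is close to its higher scrambled bar (1.73).

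Lmo2, which joins blood and endothelial transcription factors to Ldb1 and is a T cell leukemia oncogene, was lower with MOTS-c on both of its probes. A_55_P2503340 read 10.70 and 10.59 with the scrambled peptide and 9.90 and 9.93 with MOTS-c. The groups did not overlap, and the difference was -0.73 ± 0.12 (SE, n = 2 per group), or 1.66-fold lower. A_51_P223686 read 7.20 and 7.24 against 6.57 and 6.32, again without overlap, and differed by -0.78 ± 0.14, or 1.71-fold lower. The probes differed by nearly the same amount, and their mean gave -0.75. Without MOTS-c replicate 3 the differences were -0.74 and -0.65, and with normexp they were -0.65 and -0.46, the latter below 1.5-fold.

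Lmo3, a LIM-only gene known from neurons and neuroblastoma, was lower by a smaller amount. Its probe A_51_P118188 read 8.75 and 8.70 with the scrambled peptide and 8.30 and 8.16 with MOTS-c. The groups did not overlap, and the difference of -0.49 ± 0.13 (SE, n = 2 per group), 1.41-fold lower, fell just short of 1.5-fold. Without MOTS-c replicate 3 it was -0.42, and with normexp it was -0.34.

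Lmo1, also a T cell leukemia and neuroblastoma oncogene, did not separate the groups. Its probe A_52_P331762 read 14.66 and 14.78 without MOTS-c and 14.74 and 14.49 with it. MOTS-c replicate 2 lay between the scrambled arrays. The difference was -0.11 ± 0.15 (SE, n = 2 per group) and turned to 0.02 without MOTS-c replicate 3.

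**Figure D2:**
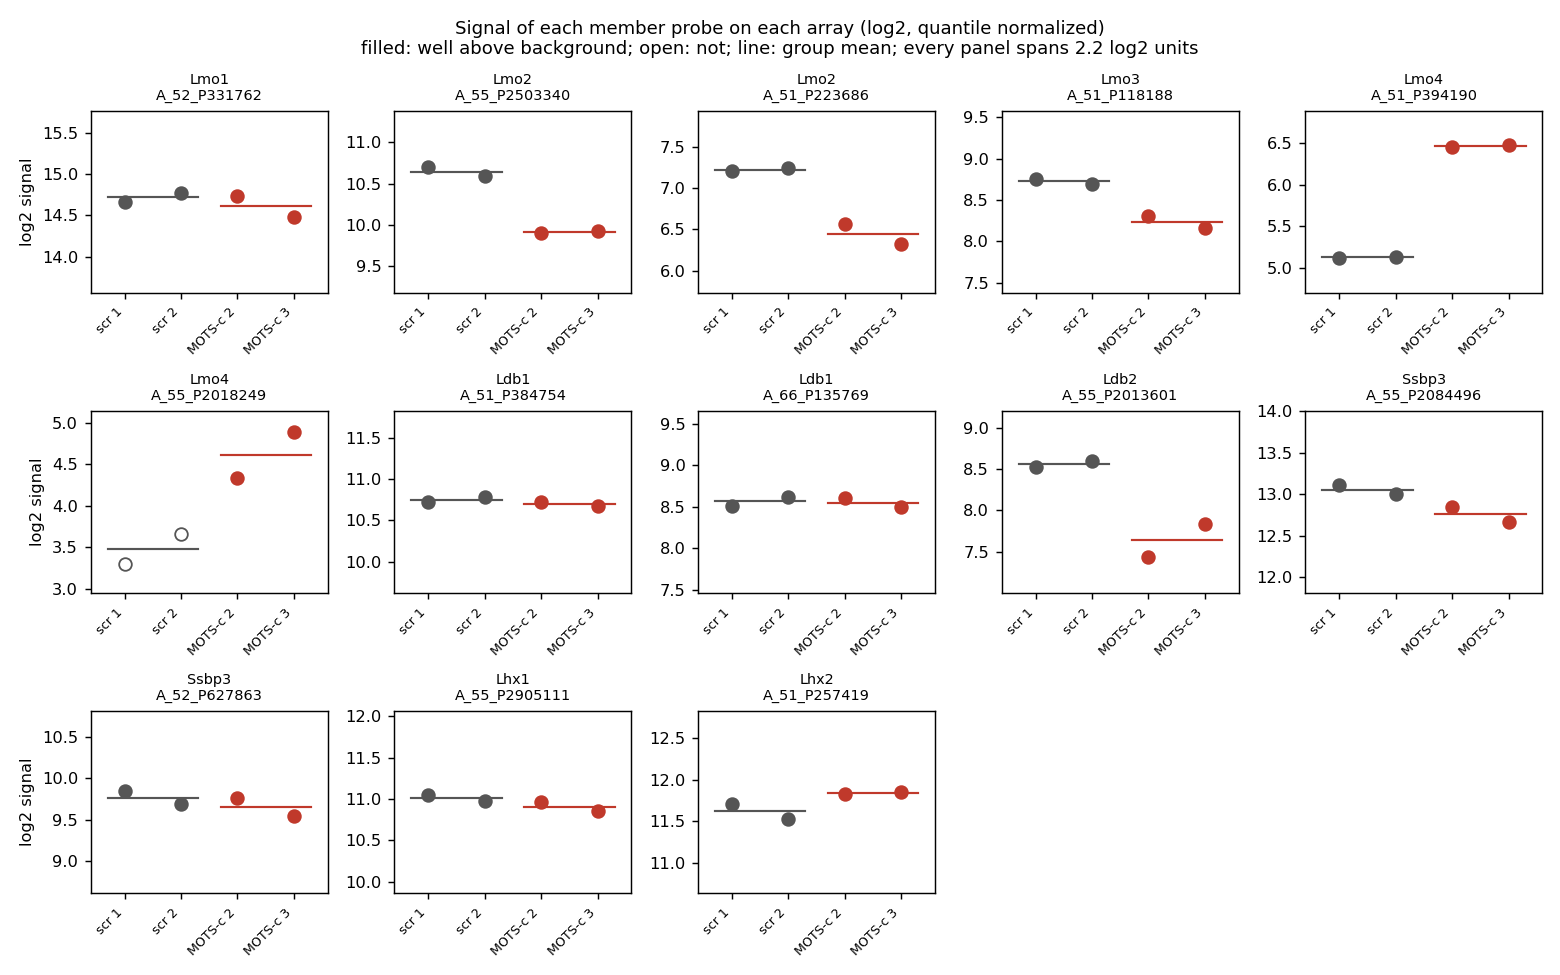
Quantile normalized log2 signal (vertical axis) of each of the 13 member probes on the 4 arrays (horizontal axis; scr, scrambled). Points are arrays, filled where the probe was well above background and open where it was not, lines are group means, and every panel spans the same range of log2 units around its own center. Lmo4 A_51_P394190 steps from 5.11 and 5.13 up to 6.46 and 6.47, Lmo2 and Ldb2 step down, and both Ldb1 panels are level.

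Ldb2, the second Ldb protein and the one found in endothelial and neural cells, had the lowest difference among the members. A_55_P2013601 read 8.53 and 8.60 with the scrambled peptide and 7.44 and 7.84 with MOTS-c. The groups did not overlap and were 0.69 apart at their closest. The difference was -0.93 ± 0.18 (SE, n = 2 per group), or 1.90-fold lower, and 339 of the 35087 probes were lower by more. The MOTS-c arrays were less alike than the scrambled arrays, so the difference ranged from -1.13 without MOTS-c replicate 3 to -0.72 without MOTS-c replicate 2.

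Ldb1, the widely expressed Ldb protein and the partner of Isl1 in islets, read nearly the same in both groups. A_51_P384754 gave 10.72 and 10.78 with the scrambled peptide and 10.72 and 10.67 with MOTS-c, a difference of -0.05 ± 0.12 (SE, n = 2 per group) and of -0.03 without MOTS-c replicate 3. A_66_P135769 gave 8.51 and 8.63 against 8.60 and 8.50, a difference of -0.02 ± 0.13. Its 2 groups overlapped, and its sign turned when scrambled replicate 2 (0.04) or MOTS-c replicate 3 (0.03) was left out.

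Ssbp3, an Ldb-stabilizing protein that is part of the Isl1 and Ldb1 complex, was slightly lower on one probe. A_55_P2084496 read 13.11 and 13.00 against 12.85 and 12.66, without overlap, and differed by -0.30 ± 0.14 (SE, n = 2 per group). A_52_P627863 read 9.85 and 9.69 against 9.77 and 9.55, with overlap, and differed by -0.11 ± 0.15. The probes disagreed on separation, and their mean gave -0.20. Without MOTS-c replicate 3 the differences were -0.21 and 0.00.

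The LIM homeodomain members went opposite ways by small amounts. Lhx1, a gene of kidney and head development, read 11.05 and 10.98 with the scrambled peptide and 10.97 and 10.85 with MOTS-c on A_55_P2905111. The difference was -0.11 ± 0.13 (SE, n = 2 per group), and the groups came within 0.01 of each other. Lhx2, a gene of eye and forebrain development, read 11.70 and 11.53 against 11.83 and 11.85 on A_51_P257419, a difference of 0.22 ± 0.13. Its groups did not overlap, with 0.12 between the closest arrays. Leaving out MOTS-c replicate 3 gave -0.05 for Lhx1 and 0.21 for Lhx2.

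Of the 13 member probes, 3 were higher and 10 lower with MOTS-c, with a median difference of -0.11. Over all 35087 probes, 18570 were higher and 16517 lower, with a median of 0.01. Without overlap of the groups, 3 member probes were higher, where 19.4% of all probes were, and 6 were lower, where 18.6% of all probes were. A difference of at least 1.5-fold without overlap was met by 2 member probes that were higher (both of Lmo4, the second by its measured value only) and 3 that were lower (both of Lmo2 and that of Ldb2), against 1.53% and 3.06% of all probes. Since this contrast chose the members, nothing is read from these shares. Apart from Lmo4, the member probes spanned -0.93 to 0.22. For scale, 2 arrays of the same group differed by a median of 0.16 (scrambled) or 0.19 (MOTS-c) over all probes.

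**Figure D3:**
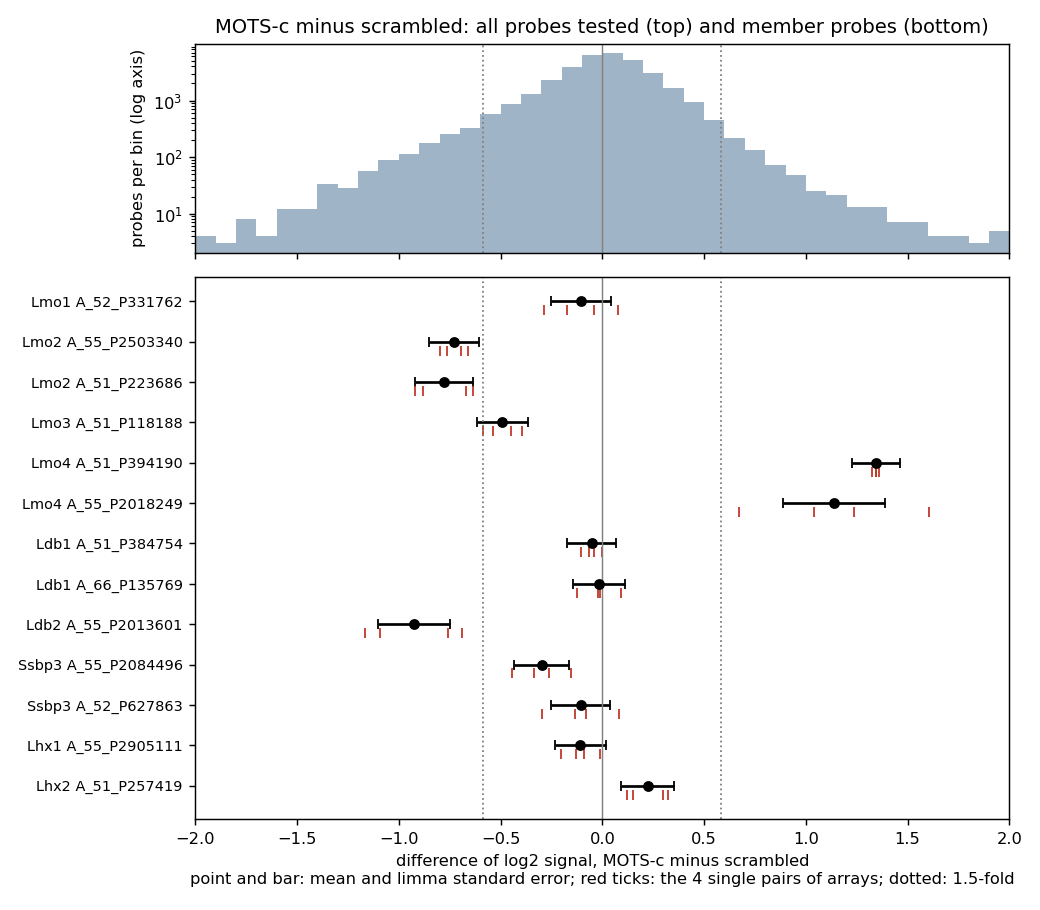
Difference in log2 signal, MOTS-c minus scrambled (horizontal axis), for all 35087 probes as a histogram with a log vertical axis (top, leaving out 23 probes beyond the axis) and for each member probe (bottom). Points and bars are the mean difference and its limma standard error, red ticks are the 4 single pairs of a MOTS-c and a scrambled array, and dotted lines mark 1.5-fold. The ticks of Lmo4 A_51_P394190 nearly coincide at 1.34, those of A_55_P2018249 and Ldb2 spread widely, and those of Ldb1 lie around 0.

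The number of arrays limits the precision. For 2 arrays against 2, the smallest two-sided p of an exact permutation test is 0.333. Across the whole array, limma with Benjamini-Hochberg adjustment called 0 of 35087 probes (0%) at an adjusted p under 0.05, where the lowest was 0.474. Without adjustment, 2755 probes (7.85%) had a limma p under 0.05, and the methods' t-test gave 2312 of 35084 (6.59%) without adjustment and 1 (0.00285%) after it. Fewer cells of a type and less RNA per cell cannot be told apart on these arrays.

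The other LIM homeodomain factors, listed apart from the members but also with earlier results of these data known, held close to 0. Of 10 genes, 8 passed the background filter with 10 probes, 4 higher and 6 lower, with a median of -0.04 against 0.01 for all probes and a range of -0.17 to 0.22. None had an unadjusted p under 0.05 in limma or the methods' t-test. Isl1, which beta cells need for insulin gene expression, differed by -0.07 on its brighter probe A_52_P337246 and 0.22 on A_66_P112935, so its probes disagreed in sign (limma adjusted p = 0.95 and 0.78). Isl2 differed by -0.11, Lhx4 by -0.05, Lhx5 by -0.11 and Lmx1b by -0.17, and Lhx6 by 0.22 and Lhx8 by 0.19. Lhx3 differed by 0.17 on its brighter probe and -0.02 on the other. These small values moved with single arrays. Leaving out MOTS-c replicate 3 turned Lhx6 to -0.16 and the dimmer Lhx3 probe to 0.13, leaving out MOTS-c replicate 2 turned the brighter Isl1 probe to 0.07 and Lhx4 to 0.02, and leaving out scrambled replicate 1 turned Lhx8 to -0.02. Lhx9 and Lmx1a did not pass the background filter.

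The SSBP genes Ssbp2 and Ssbp4, relatives of Ssbp3 that also bind Ldb proteins, were lower on 3 of 3 probes, with a median of -0.17, although the dimmer Ssbp2 probe turned to 0.03 with normexp and to 0.18 without MOTS-c replicate 2. Ssbp4 read 11.88 and 12.07 with the scrambled peptide and 11.67 and 11.38 with MOTS-c. Its groups did not overlap, and the difference of -0.45 ± 0.16 (SE, n = 2 per group) had a limma adjusted p of 0.62, so it was not called. Ssbp2 differed by -0.14 and -0.17 on its 2 probes. The unadjusted limma p of Ssbp4 was the only 1 under 0.05 in this list, and the methods' t-test had 0, beside 7.85% and 6.59% of all probes. Of all 35087 probes, 16517 were lower.

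Of 13 genes that encode partners of Ldb and Lmo2 in blood cell complexes, 7 passed the background filter with 14 probes, 4 higher and 10 lower, with a median of -0.07. Erg, Fli1, Gata1, Gata3, Lyl1 and Runx1 did not pass. The ubiquitin ligase gene Rlim, which degrades LIM cofactors, was highest at 0.41 (limma adjusted p = 0.72; 0.17 without MOTS-c replicate 3), and the corepressor gene Cbfa2t3 was lowest at -0.36 (adjusted p = 0.68). Tal1, the classical Lmo2 partner, passed on 2 of 4 arrays only and differed by -0.29, which turned to 0.09 with normexp. No probe of the list had an unadjusted p under 0.05 by limma or by the methods' t-test.

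Of the genes that encode partners of the Lmo4 protein, 4 of 4 passed with 7 probes, 4 higher and 3 lower, with a median of 0.03. Rbbp8, a DNA repair gene, was highest at 0.37 (limma adjusted p = 0.79; 0.11 without MOTS-c replicate 3), and the transcription factor gene Deaf1 was lowest at -0.17 (adjusted p = 0.84; -0.04 without that array). No probe of this list had an unadjusted p under 0.05 with either test.

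Islet genes tied to Isl1 and Ldb1 were represented by 10 of 12 genes with 10 probes, 4 higher and 6 lower, with a median of -0.04. That median lies between Ins1 (-0.04) and Ins2 (-0.05). Quantile normalization gives probes of the top ranks shared values, and Ins2 read 18.54 on scrambled replicate 1 and both MOTS-c arrays. The median therefore cannot show whether beta cell signal changed. Slc2a2, the glucose transporter gene of beta cells, read 5.23 and 5.26 with the scrambled peptide and 3.81 and 4.02 with MOTS-c. The groups did not overlap, and it was lowest of the list at -1.33 ± 0.14 (SE, n = 2 per group), but the limma adjusted p was 0.47. The probe was well above background on 1 of the 2 MOTS-c arrays only, its difference was -0.39 with normexp, and the strict filter left it out. Glp1r, the receptor gene of the incretin GLP-1, read 9.54 and 9.28 against 8.78 and 8.76. It differed by -0.64 ± 0.14 without overlap (adjusted p = 0.51). Neurod1, a transcription factor gene of endocrine cells, was highest at 0.29 (adjusted p = 0.83), but was at -0.02 without MOTS-c replicate 3. Slc2a2 and Glp1r were the 2 of 10 probes in the list with an unadjusted limma p under 0.05, beside 7.85% of all probes. The methods' t-test gave 4, beside 6.59%. Among these was Ins1 at only -0.04, whose scrambled arrays both read 18.13 after normalization, with an SD of 4.1e-06. After adjustment 0 were called by either test. Ucn3 did not pass the background filter.

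Genes listed as cytoplasmic LIM-only proteins, whose products also hold LIM domains, were represented by 10 of 11 genes with 10 probes. Of these, 3 were higher and 7 lower, with a median of -0.16. Crip3 was highest at 0.62 (limma adjusted p = 0.49) and Fhl4 lowest at -0.56 (adjusted p = 0.54). An unadjusted p under 0.05 was found for 3 of these probes, 1 higher and 2 lower, and for 2 with the methods' t-test, beside 7.85% and 6.59% of all probes. Crip3 was at 0.28 with normexp. Csrp3 did not pass.

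**Figure D4:**
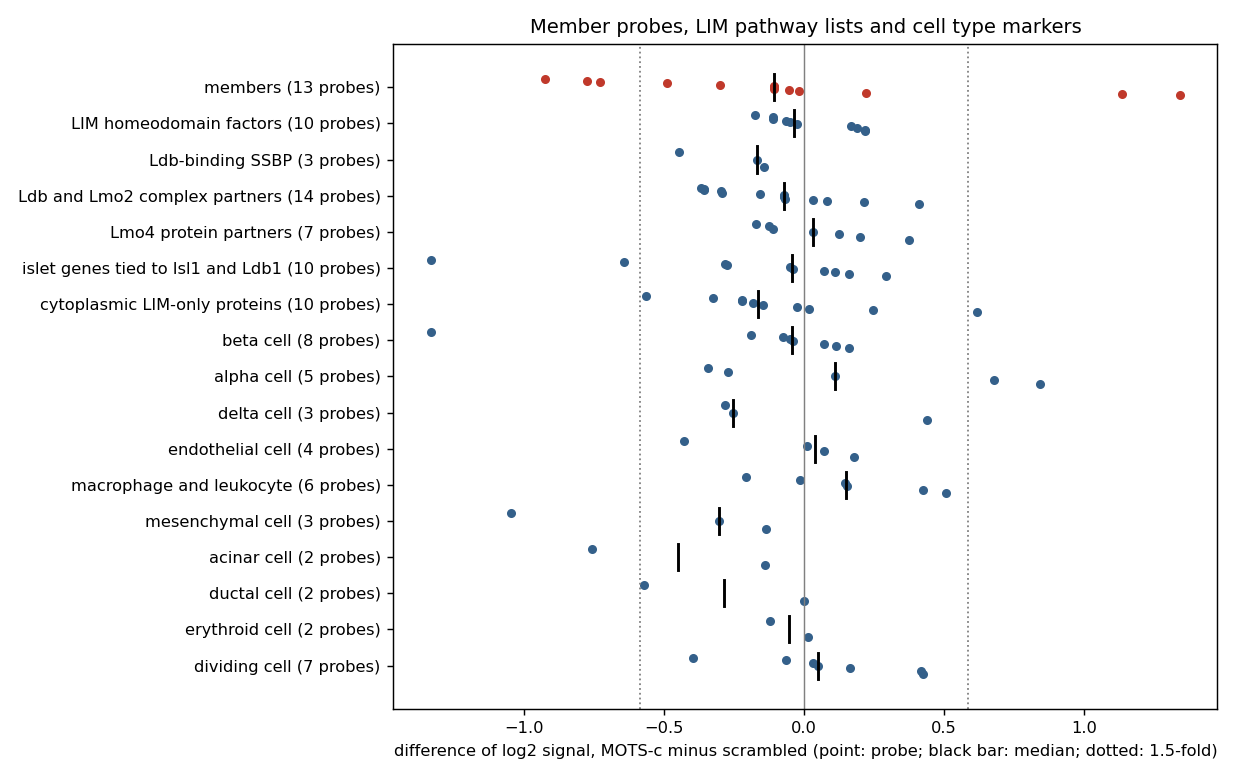
Difference in log2 signal, MOTS-c minus scrambled (horizontal axis), of the member probes (red) and of the probes in each pathway and cell type marker list (blue). A point is a probe that passed the background filter, the black bar is the median of its list, and dotted lines mark 1.5-fold. The LIM homeodomain factors lie between -0.17 and 0.22, while the member probes extend from -0.93 to 1.34.

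Markers of other cell types were examined beside the members because Lmo2 and Ldb2 are also genes of endothelial cells. Of 10 endothelial markers, 4 passed the background filter, and Cdh5, Emcn, Kdr, Robo4, Tek and Tie1 did not. Of the 4, Plvap was at 0.01 (-0.00 with normexp), Egfl7 at 0.07 and Pecam1 at 0.18. Esam read 8.53 and 8.54 with the scrambled peptide and 8.23 and 7.99 with MOTS-c, without overlap, a difference of -0.43 (limma adjusted p = 0.58). Their mean log2 signal was 9.21 and 9.29 without MOTS-c and 9.24 and 9.17 with it, so the groups overlapped in the mean but not in Esam.

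Mesenchymal markers were lower on 3 of 3 probes, from 3 of 7 genes, with Pdgfra lowest at -1.05 (-0.68 without MOTS-c replicate 3, -0.40 with normexp), and their mean log2 signal was 8.56 and 8.51 against 8.17 and 7.90. Acinar markers (2 of 6 genes passing) and ductal markers (2 of 5) had medians of -0.45 and -0.29, with the acinar gene Cela1 at -0.76. Alpha cell markers (4 of 5 genes) had a median of 0.11. Beta cell markers (7 of 8) had a median of -0.04, which again lay between Ins1 and Ins2 and cannot show a change. Delta cell markers (3 of 3) and macrophage and leukocyte markers (4 of 7) had medians of -0.25 and 0.15. Of the 6 macrophage and leukocyte probes, 4 were higher and 2 lower. Cd14 (0.51) and Cd74 (0.42) were highest, each well above background on 2 arrays only, and Csf1r was lowest at -0.21. Dividing cell markers (4 of 4) and erythroid markers (1 of 3 on the array) had medians of 0.05 and -0.05. The dividing cell probes disagreed in sign, 5 higher and 2 lower, with Mki67 at -0.40 and both Top2a probes at 0.42. No marker probe was called at an adjusted p under 0.05 by limma or by the methods' t-test, and the part of these markers in the member values was not tested.

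The pattern over the 4 arrays most like that of Lmo4 A_51_P394190 was sought among the brightest probes, well above background on all arrays, of 14792 genes, each centered on its own mean. The smallest Euclidean distance, 0.0844 in log2 signal, was that of Bcar3, an adaptor gene of integrin and estrogen signaling, which read 5.20 and 5.22 against 6.48 and 6.46. The next were Chst7, a sulfotransferase gene (distance 0.327, difference 1.56), Dio2, the gene of the enzyme that activates thyroid hormone (0.332, 1.05), Frrs1 (0.416, 0.94) and Atf7ip2 (0.430, 1.21). Likeness of this kind is a description over 4 arrays, on which any gene with an equal step between the groups would score well.

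**Figure D5:**
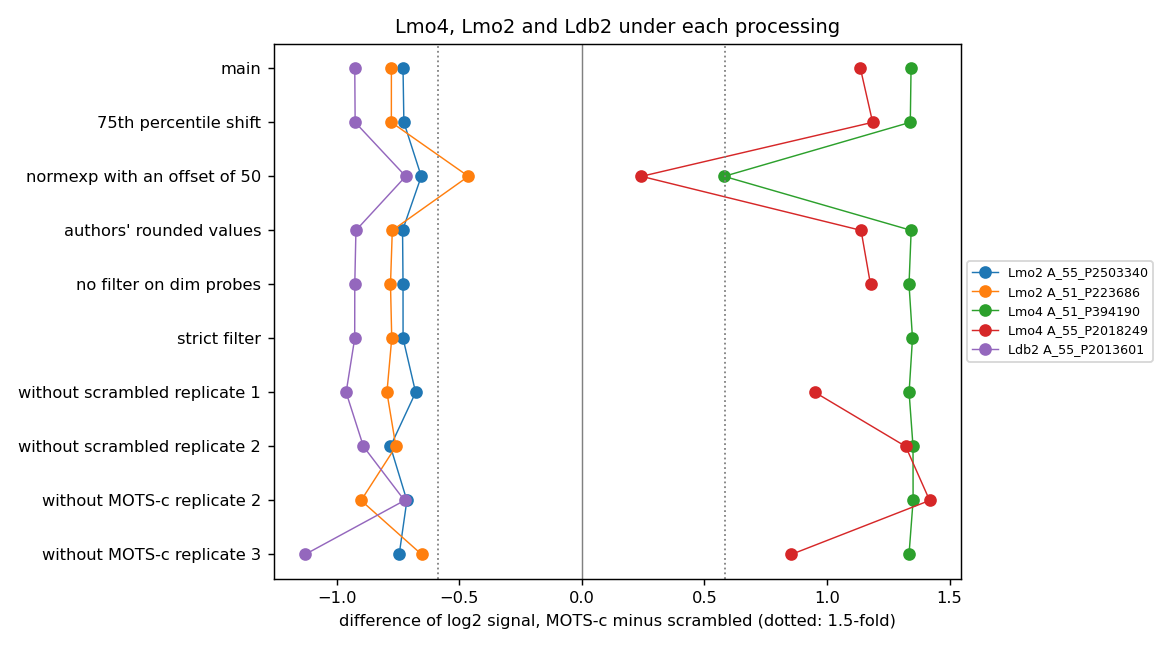
Difference in log2 signal, MOTS-c minus scrambled (horizontal axis), of the 5 member probes past 1.5-fold under each processing (vertical axis), with dotted lines at 1.5-fold. A line joins the values of 1 probe, and Lmo4 A_55_P2018249 has no value under the strict filter. Probes whose groups do not overlap cannot turn sign when 1 array is left out, and normexp brought both Lmo4 probes (0.58 and 0.24) and Lmo2 A_51_P223686 (-0.46) inside the dotted lines.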

How the data were processed

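Intensity values, as deposited by the authors, came from Cy3-labeled RNA read with Feature Extraction 11.0.1.1 and were background corrected within each array. The authors also deposited the same intensities rounded. Here, control spots (3671 per array) and outlier spots (96 to 131) were removed, the log2 of each intensity was taken, and repeated spots were averaged. Probes had to be well above background on 2 or more arrays, of either group, and the arrays were quantile normalized. The study's methods remove probes with a Flag A that they do not define. limma 3.58.1 (R 4.3.3) compared the groups, with Benjamini-Hochberg adjustment and 2 residual degrees of freedom plus 2.64 from other probes. For each gene, the difference of the group means, its standard error and all 4 values are given. Replicate numbers came from the sample titles. The animals were littermates, and which animal gave which sample is not given in the sources used here, so p-values measure the spread between these samples.

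A symbol was matched for 33006 of 56605 probes through RefSeq names on GRCm38.p6. The array was designed on mm9, so no gene coordinates are given. Members and lists were chosen with earlier results of these data known. The text names all members, every gene of the LIM homeodomain and SSBP lists, the highest and lowest gene of each other pathway list by its brightest probe, and the 5 genes closest to Lmo4. Glp1r, Tal1 and the markers were named after their values were seen. Some genes of these lists are not reported here.

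Alternatives were a 75th percentile shift, normexp on median signals with an offset of 50, the rounded values, no filter, a strict filter (well above background on 4 arrays), leaving out each array after normalization, the methods' t-test, a limma trend and the mean over a gene's probes. The fits were tested on simulated data.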

Additional observations from a re-analysis of the deposited data

How the results depend on the processing

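With normexp, 0 member probes were higher by 1.5-fold without overlap in place of 2, and 2 in place of 3 were lower. The strict filter gave 1 higher, since it holds no value for the second Lmo4 probe. Groups chosen for not overlapping cannot turn sign when 1 array is left out, so leaving out arrays says nothing about the direction of these probes, and the second Lmo4 probe counts by its measured value while its bound is under 1.5-fold. Lmo1, Ldb1 A_66_P135769 and Ssbp3 A_52_P627863 turned sign in 4 values, all from leaving out 1 array. Of 44 list probes examined, 14 turned sign in 24 of 393 values, with normexp for Spp1 (0.05), Ssbp2 A_66_P122717 (0.03), Tal1 (0.09) and Plvap (-0.00), and otherwise when 1 array was left out. Over all probes, the methods' t-test called 1 probe at an adjusted p under 0.05 in place of 0, and 0 to 0 were called when 1 array was left out. An unadjusted p under 0.05 with 1.5-fold was met by 1239 probes (31.2% higher), by 406 with normexp (18.5% higher) and by 457 with the methods' t-test. Leaving out 1 array gave 1391 to 3299, the latter without MOTS-c replicate 2 (44.3% higher), the former without scrambled replicate 2 (43.0% higher), and 1608 without scrambled replicate 1 (47.6% higher). The cause was not tested. An array that is left alone in its group is assumed to vary like the other group. No paired analysis was possible because the groups share only replicate number 2. A slide block was not run, since all 4 arrays lay on 1 slide. Signal close to background limits both Lmo4 probes.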
